A study of Homo sapiens with 24 samples.

Results

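The comparison asked what PHA-767491 adds to lapatinib in SKBR7, an established human triple-negative breast cancer cell line, that is a line without the oestrogen and progesterone receptors or HER2 amplification. It holds 6 RNA sequencing libraries of the 24 in the series, in which 2 cell lines were each given 4 treatments in triplicate. The 3 co-treated libraries came from cells given lapatinib at 3.16 µM together with PHA-767491 at 1 µM for 6 h, and the 3 lapatinib libraries from cells given lapatinib at 3.16 µM alone for the same time. The 3 DMSO (vehicle) and 3 PHA-767491 (1 µM) libraries of SKBR7 are given as levels only. All came from the same cell line grown in serum-containing medium, so they describe 1 line at 1 early time, and the labels do not say whether the replicate wells were separate cultures. The genes compared were the 14315 with a value in all 6 libraries, of 36481 in the table. Values are log2 expression values, on which 1 unit is a factor of 2, and they compare a gene between libraries but not one gene with another, since they are not per length.

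PHA-767491 inhibits 2 kinases that act in different nuclear processes. CDC7, with its regulatory subunit DBF4, phosphorylates the MCM helicase and so allows replication origins to fire. CDK9, with a cyclin T subunit, forms P-TEFb, which phosphorylates RNA polymerase II and the factors that hold it paused near the start of genes, and so releases it into elongation. In cells part of P-TEFb is kept inactive in a particle built on 7SK RNA, where HEXIM1 holds the kinase, MEPCE caps the RNA and LARP7 binds its end. HEXIM1 transcription is known to follow P-TEFb activity. Lapatinib blocks the kinase domains of EGFR and HER2, upstream of the ERK and AKT pathways. mRNAs that turn over quickly, such as those of immediate early genes and MCL1, are usually the first to fall when CDK9 is blocked.

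The 2 libraries that list the fewest genes lie on opposite sides of the comparison. Co-treatment replicates 1, 2 and 3 listed 16232, 20798 and 22854 genes, and lapatinib replicates 1, 2 and 3 listed 20287, 18021 and 23282. Over the 14315 genes their medians were lowest in the same pair, at 3.3 in co-treatment replicate 1, 3.84 in lapatinib replicate 2 and 4.32 to 4.75 in the other 4. Lapatinib replicate 2 also stood apart in its composition. The median of the 13 mitochondrially encoded mRNAs was 6.07 there and 9.83 to 10.11 in the other 5, and the fibroblast collagen genes COL1A1 and COL1A2 stood at 8.95 and 8.16 there and at -3.58 to 4.0 in the other 5. Hs578T, the other line of the series, carried COL1A1 at 12.24 to 12.72 in its lapatinib and co-treated libraries, whereas the SKBR7 DMSO and PHA-767491 libraries had it at 2.62 to 5.46. Of 7 genes at 6 or above in those Hs578T libraries and at 0 or below in those of SKBR7 DMSO and PHA-767491, lapatinib replicate 2 listed all 7, with 3 at or above 0, and the other 5 libraries listed 0 to 6, with 0 at or above 0. The comparison over 4 libraries leaves out this library and co-treatment replicate 1 together, so it does not show how far either alone moved the values. Leaving out lapatinib replicate 2 alone moved the median log2 difference of all genes, co-treatment minus lapatinib, from -0.1 to -0.33. Leaving out co-treatment replicate 1 alone moved that median the other way, to 0.28. Of the defining epithelial and line markers, KRT8, KRT18, VIM and CD44 were high in all 6. ERBB2 was at 5.465 to 6.968 in all 6, CDH1 at 4.06 to 5.635, CDH2 at 4.832 to 5.767 and GATA3 at 0.122 to 3.516. KRT17 was at -3.179 to 0.571 in the 5 libraries that list it. ESR1, KRT14 and EPCAM were unlisted in some libraries and below 0 in the rest, and PGR and KRT5 were listed in none. Of markers of blood, endothelium, liver and glia, ALB and GFAP were listed in none of the 6 and PTPRC, CD3E, HBA1 and PECAM1 each in 1 at most, below -2.9. The monocyte marker CD14 was listed in all 6, at -3.72 to 2.23, and the endothelial marker VWF in 5, at -2.92 to 0.45. The stromal genes COL3A1, at 4.15 to 6.76, and DCN, at -3.45 to 2.34 in the 5 libraries that list it, were both highest in lapatinib replicate 2. So every comparison was run over all 6 libraries and again over 4, without co-treatment replicate 1 and lapatinib replicate 2, on the same genes.

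**Figure D1:**
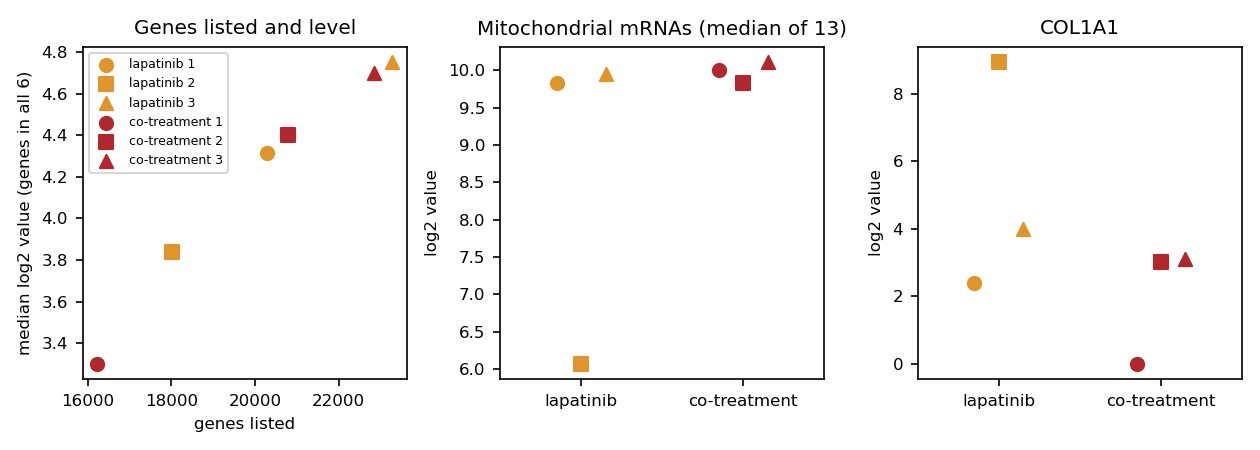
Each point is 1 library, with colour for treatment and shape for replicate. Left, the number of genes listed against the median log2 value over the 14315 genes; middle, the median log2 value of the 13 mitochondrially encoded mRNAs; right, the log2 value of COL1A1. Lapatinib replicate 2 is alone at 6.07 for the mitochondrial mRNAs and at 8.95 for COL1A1, and co-treatment replicate 1 is lowest in genes listed.

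Over the 6 libraries, 39 genes were higher in co-treated cells (0.272% of those tested) and 77 were lower (0.538%), by limma with a variance trend and Benjamini-Hochberg adjusted p below 0.05. Over the 4 libraries, 463 were higher (3.23%) and 591 lower (4.13%). Of the 116 genes called over 6, 99 were called in the same direction over 4 and 0 in the opposite direction, so 25 of the 39 higher and 74 of the 77 lower were shared. Of the other 14 higher genes, 13 were the mitochondrially encoded mRNAs, none of which passed over the 4 libraries, and the last was a nuclear copy of one of them, MTATP6P1 (chosen after its values were seen, as were the lower genes COL1A1, MAP7D1 and PTMS, which passed only over 6). A stricter set, called over 4 and with all 3 co-treated libraries above or all below the 3 lapatinib libraries, held 254 higher (1.77%) and 356 lower genes (2.49%). The 12 largest rises and 12 largest falls picked by size came from this set, so groups apart are no added support for them. They include HEXIM1, MEPCE, SLC38A2, SRSF3, SRSF7, CCNT2, RBM15, TNFRSF10D, BTG2 and LINC01137. Because each library was scaled to 1 distribution, a level is relative to the other genes, and a change in the total RNA of a cell would not show. Fewer cells of a type and less RNA per cell cannot be told apart either. The median difference over all genes was -0.10 over 6 libraries and 0.06 over 4, with a median standard error of 0.68 and 0.36. In both fits limma took each gene's variance from the trend across genes alone. A gene's own spread therefore entered neither its test nor the standard error (SE) given after ± below. With 1 variance prior for all genes instead of the trend, 0 genes passed in either fit, against 433 at an unadjusted p below 0.05 over 6 libraries and 1276 over 4 (994 and 2483 with the trend). Counts also moved with single libraries: over 6 they were lowest, at 7 higher and 16 lower, without co-treatment replicate 1, and the lower count was highest, at 167, without lapatinib replicate 2. Over 4 they were 138 and 148 without co-treatment replicate 2, 53 and 277 without co-treatment replicate 3, 237 and 699 without lapatinib replicate 1, and 1388 and 499 without lapatinib replicate 3. Testing without the trend removed every call named below, with adjusted p from 0.53 upwards.

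**Figure D2:**
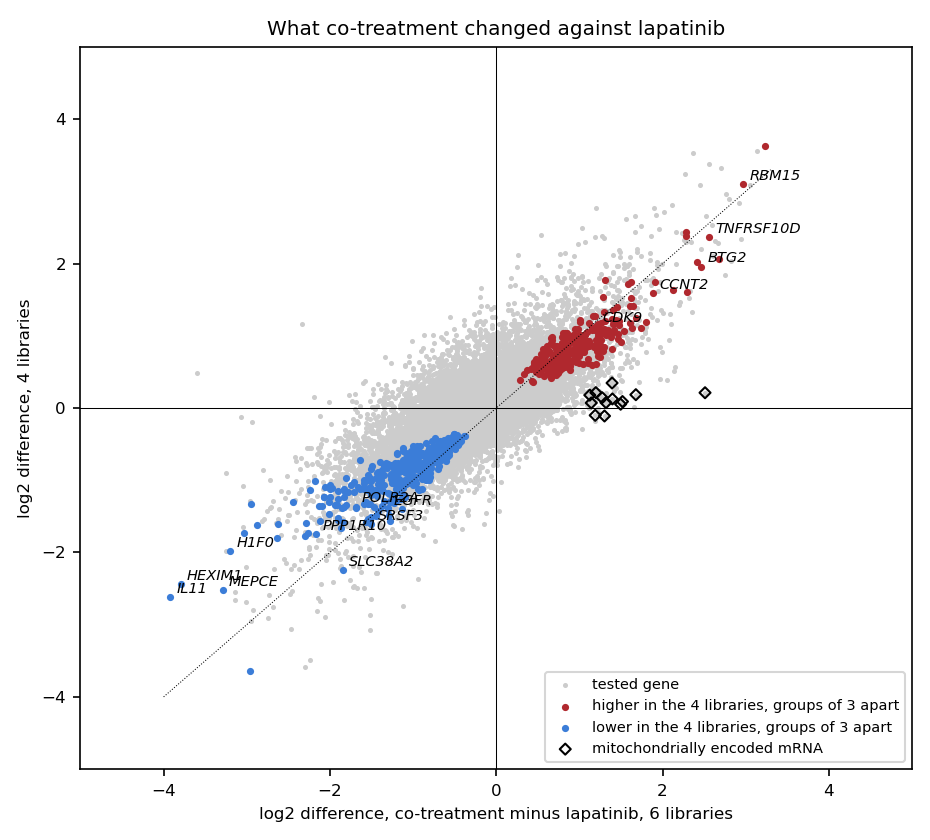
Each point is 1 of 14315 genes, placed by its log2 difference, co-treatment minus lapatinib, over 6 libraries (horizontal) and over 4 (vertical); the dotted line marks equal values. Red and blue points passed over 4 libraries with the groups of 3 not overlapping (254 and 356 genes). The 13 mitochondrially encoded mRNAs (open diamonds) lie well right of 0 but near 0 vertically.

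Some of the largest changes were in the CDK9 machinery itself, where 2 genes of the inhibitory 7SK particle fell and the subunits of P-TEFb rose. HEXIM1 (ENSG00000186834.3) and MEPCE (ENSG00000146834.13) were lower in co-treated cells, whereas CDK9 (ENSG00000136807.11), CCNT1 and CCNT2 (ENSG00000082258.12) were higher. The start regions of these 5 genes are shown because they carry this opposite movement. Each runs from 250 bases before to 50 after the RefSeq start in GRCh38.p14, 5′ to 3′ on the strand of the gene, with capitals marking matches on either strand to the TATA box (TATAAA), the CCAAT box (CCAAT), the GC box (GGGCGG) or the E-box (CACGTG), none of which overlapped another. The windows were also searched for the AP-1 site (TGANTCA), the cAMP response element (TGACGTCA), the CArG box and the heat shock element, and none of these was in the 5 windows. The regions are chr17:45148225-45148524 for HEXIM1, chr7:100428540-100428839 for MEPCE, chr9:127785784-127786083 for CDK9, chr12:48716658-48716957 for CCNT1 and chr2:134918572-134918871 for CCNT2, all on the plus strand but that of CCNT1, which is on the minus strand.
HEXIM1: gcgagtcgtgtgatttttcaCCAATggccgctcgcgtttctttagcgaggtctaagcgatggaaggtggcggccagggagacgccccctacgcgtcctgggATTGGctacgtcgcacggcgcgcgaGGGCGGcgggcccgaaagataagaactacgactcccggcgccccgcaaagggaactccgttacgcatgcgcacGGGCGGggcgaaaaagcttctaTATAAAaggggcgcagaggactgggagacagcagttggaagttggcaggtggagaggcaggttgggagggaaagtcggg
MEPCE: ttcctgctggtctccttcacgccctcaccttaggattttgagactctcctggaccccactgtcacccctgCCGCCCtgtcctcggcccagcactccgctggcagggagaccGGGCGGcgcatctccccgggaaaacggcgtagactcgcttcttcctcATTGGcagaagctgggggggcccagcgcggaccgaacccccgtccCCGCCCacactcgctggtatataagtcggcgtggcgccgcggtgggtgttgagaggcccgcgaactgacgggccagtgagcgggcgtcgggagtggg
CDK9: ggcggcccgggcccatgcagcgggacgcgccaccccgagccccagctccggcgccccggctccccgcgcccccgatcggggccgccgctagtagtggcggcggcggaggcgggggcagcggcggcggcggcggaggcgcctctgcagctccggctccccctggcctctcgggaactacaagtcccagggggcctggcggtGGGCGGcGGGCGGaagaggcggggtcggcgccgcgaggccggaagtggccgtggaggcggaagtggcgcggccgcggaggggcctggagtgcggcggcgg
CCNT1: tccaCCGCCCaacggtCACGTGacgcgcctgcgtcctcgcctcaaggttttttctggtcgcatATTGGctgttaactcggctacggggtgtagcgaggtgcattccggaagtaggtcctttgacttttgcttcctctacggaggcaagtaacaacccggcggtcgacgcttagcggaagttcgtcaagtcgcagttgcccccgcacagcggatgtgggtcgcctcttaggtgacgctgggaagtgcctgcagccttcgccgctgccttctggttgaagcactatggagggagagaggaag
CCNT2: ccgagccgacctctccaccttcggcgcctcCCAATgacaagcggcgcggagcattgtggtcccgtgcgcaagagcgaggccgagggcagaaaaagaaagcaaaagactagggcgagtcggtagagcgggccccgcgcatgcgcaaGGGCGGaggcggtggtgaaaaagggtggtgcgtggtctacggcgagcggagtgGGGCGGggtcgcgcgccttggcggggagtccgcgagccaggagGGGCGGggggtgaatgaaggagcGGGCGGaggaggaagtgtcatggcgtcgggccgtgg
The HEXIM1 window held TATAAA once, beside 2 CCAAT and 2 GC boxes, whereas the CDK9 window held 2 GC boxes and no other match. MEPCE had 1 CCAAT and 3 GC boxes, CCNT1 had 1 CCAAT box, 1 GC box and the 1 E-box of the 5 windows, and CCNT2 had 1 CCAAT and 4 GC boxes. Over the 10234 tested genes with such a window, the TATA box was in 5.14%, the CCAAT box in 36.4%, the GC box in 71.2% and the E-box in 10.1%. A match says only that the letters are there.

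HEXIM1 stood at 6.16, 6.94 and 6.66 in the lapatinib libraries and at 0.44, 4.02 and 3.91 in the co-treated ones. No co-treated library came near the lowest lapatinib value, and co-treatment replicate 1, which lists the fewest genes, was by far the lowest. The difference was -3.79 ± 0.56 (SE from the trend, n = 3 against 3, limma adjusted p = 5.75e-08) over 6 libraries. Over 4 it was -2.44 ± 0.27 (n = 2 against 2, limma adjusted p = 9.83e-17). The standard deviation of HEXIM1 itself, which entered neither SE, was 2.04 among the 3 co-treated libraries and 0.39 among the 3 lapatinib ones. HEXIM1 was at 6.58 to 6.67 in the DMSO libraries and at 5.17 to 5.38 with PHA-767491 alone, so the co-treated level lay below that of either single treatment. MEPCE followed the same order, at 6.53, 7.01 and 6.91 with lapatinib and at 2.18, 4.29 and 4.10 with both compounds. Its groups did not overlap, and it was lower by -3.29 ± 0.47 (1.37e-08) over 6 and -2.52 ± 0.24 (1.54e-22) over 4. In DMSO MEPCE lay at 6.73 to 6.92 and with PHA-767491 alone at 5.87 to 6.02. LARP7, named here after its values were seen, did not pass (-0.62 ± 0.32 over 4, adjusted p = 0.314).

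CDK9, the kinase subunit, stood at 5.25, 5.08 and 5.86 in the lapatinib libraries and at 6.43, 6.68 and 6.69 in the co-treated ones. Every co-treated library was above every lapatinib library, and above the DMSO (5.70 to 5.75) and PHA-767491 (5.74 to 5.85) libraries. It rose over 4 libraries (1.13 ± 0.19, adjusted p = 3.69e-07) but did not pass over 6 (1.21 ± 0.37, adjusted p = 0.102). CCNT2, a cyclin T partner of the kinase, was at 4.35, 3.19 and 4.67 with lapatinib and at 5.66, 5.91 and 6.30 with both. CCNT2 lay at 4.42 to 4.71 in DMSO and, already higher, at 4.83 to 5.21 with PHA-767491 alone. It rose in both fits, by 1.89 ± 0.50 (adjusted p = 0.0243) and 1.59 ± 0.26 (6.93e-08). Over 6 libraries its call was lost without co-treatment replicate 1 (0.0922), 2 (0.572) or 3 (0.374), or without lapatinib replicate 1 (0.0532). CCNT1, the other cyclin T and outside the naming rule, rose by 1.47 over 6 (7.60e-04) and 1.15 over 4 (1.94e-11).

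All 25 listed genes of P-TEFb, the 7SK particle and elongation factors were tested, and 4 rose and 4 fell over the 4 libraries. Over all genes 3.23% rose and 4.13% fell there, the background for each list count over 4 libraries below, as 0.272% and 0.538% are over 6. The median difference of the 25 was -0.06, beside 0.06 for all genes. HEXIM1, MEPCE, CDK9, CCNT1 and CCNT2 held their calls when any 1 of those 4 libraries was left out. The other 3 did not: SUPT6H, a histone chaperone of elongation, was higher by 0.60, and AFF1, a scaffold of the super elongation complex, and CDK12, a later kinase of the polymerase tail, were lower by -0.85 and -0.60, with adjusted p reaching 0.33, 0.358 and 0.365 without 1 library. Of 11 RNA polymerase II subunits tested, 1 passed: POLR2A (ENSG00000181222.14, chr17:7484366-7514618 in GRCh38), the largest subunit and carrier of the tail that CDK9 phosphorylates. POLR2A stood at 7.48, 7.51 and 7.81 with lapatinib and at 5.17, 6.18 and 6.38 with both compounds. Its groups were apart, with a difference of -1.69 ± 0.31 (adjusted p = 4.08e-05) over 6 and -1.36 ± 0.15 (3.78e-16) over 4. DMSO libraries held it at 7.92 to 8.08 and PHA-767491 libraries at 6.89 to 7.14. Centring each library on its median left POLR2A short of the threshold over 6 libraries (0.0705) but not over 4.

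**Figure D3:**
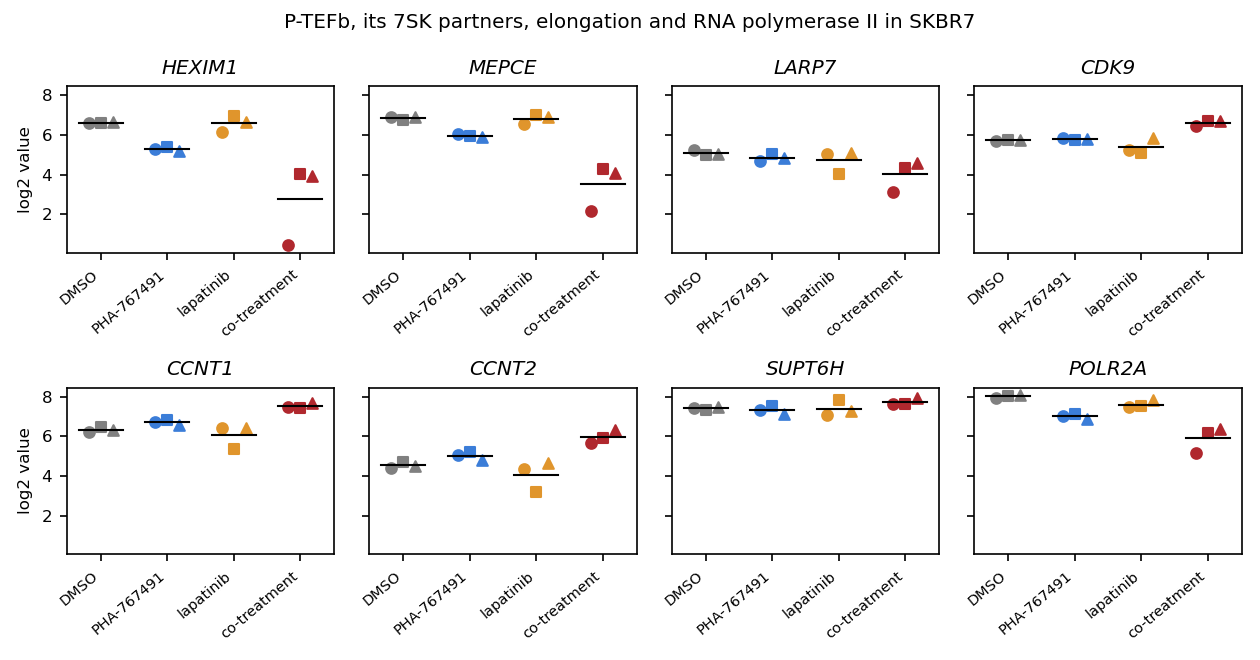
Log2 value of 8 genes of P-TEFb, the 7SK particle, elongation and RNA polymerase II in the 12 SKBR7 libraries. Points are libraries (circle, square and triangle for replicates 1, 2 and 3), bars are group means. HEXIM1, MEPCE and POLR2A are lowest in co-treated cells and already lower with PHA-767491 alone than in DMSO. CDK9, CCNT1 and CCNT2 are highest in co-treated cells, and CCNT2 is already higher with PHA-767491 alone than in DMSO. Co-treatment replicate 1 is the lowest point for HEXIM1 at 0.44.

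Among the genes with the largest falls were several with roles in signalling, amino acid supply and RNA processing. IL11, a secreted cytokine of the IL-6 family, stood at 5.95, 6.22 and 6.15 with lapatinib and at -0.30, 3.52 and 3.34 with both. The groups did not overlap, and the fall was -3.92 ± 0.69 (adjusted p = 1.84e-05) over 6 and -2.62 ± 0.33 (5.83e-13) over 4. It was the 1 cytokine of 10 tested that passed, and it was at 4.75 to 4.86 with PHA-767491 alone and 6.01 to 6.17 in DMSO. SLC38A2, the amino acid transporter SNAT2, was at 8.20, 6.56 and 8.05 with lapatinib and 5.53, 5.85 and 5.90 with both. It fell by -1.84 ± 0.31 (7.34e-06) and -2.25 ± 0.15 (1.54e-45), and lapatinib replicate 2 was the library nearest to the co-treated ones. Over 6 libraries its call was lost with centred libraries (0.0705) and with the replicate block and ranking (0.0505). The remaining falls picked by size over the 4 libraries were H1F0 (linker histone H1.0, -1.99), PPP1R10 (a regulatory subunit of protein phosphatase 1, -1.74), UTP18 (a ribosome biogenesis factor, -1.66), OSGIN1 (an oxidative stress-induced growth inhibitor, -1.59), CHORDC1 (an HSP90 co-chaperone, -1.57), SMG9 (a subunit of the nonsense-mediated decay kinase complex, -1.56) and H3F3B (histone H3.3, -1.55). The rule that picked these 7 required all 3 co-treated libraries to lie below the 3 lapatinib ones, as 6.63% of all genes did. All but CHORDC1 (adjusted p = 0.152) also passed over 6 libraries. There the call of H1F0 was lost without lapatinib replicate 3 (0.0593) and that of UTP18 without co-treatment replicate 2 (0.0528). Those of UTP18 (0.0637) and H3F3B (0.158) were lost with centred libraries.

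The largest rise was that of RBM15 (ENSG00000162775.14, chr1:110338506-110346681 in GRCh38), an adaptor that brings the m6A methyltransferase to RNA. RBM15 stood at 3.57, 3.45 and 3.98 in the lapatinib libraries and at 6.16, 6.75 and 6.99 in the co-treated ones. The groups were more than 2 units apart, and the difference was 2.97 ± 0.47 (adjusted p = 9.34e-07) over 6 and 3.10 ± 0.25 (1.35e-30) over 4. DMSO (4.11 to 4.46) and PHA-767491 (4.04 to 4.56) libraries lay close to the lapatinib ones, below every co-treated library. TNFRSF10D, a decoy receptor for TRAIL that lacks a working death domain, stood at 5.47, 4.80 and 5.78 with lapatinib and 7.75, 7.92 and 8.07 with both. It rose by 2.56 ± 0.32 (4.93e-12) and 2.37 ± 0.16 (3.08e-46), to levels above DMSO (5.81 to 5.90) and PHA-767491 alone (6.36 to 6.54). BTG2, an antiproliferative gene that recruits the CCR4-NOT deadenylase, was at 3.61, 1.75 and 4.32 with lapatinib and at 5.23, 5.89 and 5.97 with both. It rose by 2.47 ± 0.61 (0.0114) and 1.96 ± 0.30 (9.93e-09), and over 6 libraries the call was lost without co-treatment replicate 1 (0.0608), 2 (0.677) or 3 (0.24). LINC01137, a long non-coding RNA, was at 5.11 to 5.18 in the lapatinib libraries and 6.48 to 6.91 in the co-treated ones, a rise of 1.62 ± 0.37 (0.00369; 0.34 and 0.11 without co-treatment replicates 2 and 3) and 1.75 ± 0.20 (3.98e-16). Further rises were those of SESN2 (a stress-induced regulator of mTORC1, 1.78 over 4), C16orf91 (1.72), C11orf68 (1.54), GPATCH2L (1.52), CLP1 (an RNA kinase of the pre-mRNA cleavage machinery, 1.42), RC3H1 (roquin-1, which promotes mRNA decay, 1.39) and TUSC2 (1.36). Of these 7, CLP1 alone passed over 6 libraries (adjusted p = 0.038), a call lost on leaving out any library but lapatinib replicate 2 (0.0578 to 0.725). Leaving out 1 co-treated library ended the 4-library call of SESN2 (0.257 without replicate 2, 0.263 without 3), of RC3H1 (0.0676 and 0.124), of GPATCH2L (0.261 without replicate 3) and of C16orf91 (0.0535 without replicate 3).

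Most of the SR protein genes that passed fell, and the m6A genes that passed rose. SR proteins bind exons and guide the spliceosome, and the CLK kinases phosphorylate them. Of 16 such genes, 8 fell and 1 rose over the 4 libraries (4.13% and 3.23% of all genes), with a median of -0.31 beside 0.06 for all genes. SRSF3 was at 8.66, 7.85 and 8.75 with lapatinib and at 6.55, 7.20 and 7.01 with both. Its groups were apart, and it fell by -1.50 ± 0.27 (adjusted p = 2.54e-05) over 6 and -1.60 ± 0.13 (1.38e-30) over 4, and over 6 the call was lost with centred libraries (0.134) and with the replicate block and ranking (0.0505). SRSF7 fell by -1.28 ± 0.31 (0.00848) and -1.56 ± 0.15 (2.56e-21), and SRSF6 by -1.17 ± 0.16 over 4 (2.26e-10; 0.0511 over 6). The 6-library call of SRSF7 was lost without co-treatment replicate 1 (0.148), 2 (0.123) or 3 (0.106) and without lapatinib replicate 1 (0.186) or 3 (0.39). SRSF1, SRSF2 and SRSF10 (outside the naming rule) also held their 4-library calls without each library in turn, whereas SRSF5 and SRSF11 did not, and CLK3 was the member that rose (0.91). Of 14 genes of the m6A machinery, which marks, reads and removes N6-methyladenosine in mRNA, 4 rose and 0 fell over the 4 libraries (3.23% and 4.13% of all genes), with a median of 0.21. These were RBM15, the readers YTHDF1 (0.90 ± 0.16, 1.84e-06) and YTHDF2 (0.80 ± 0.16, 6.71e-05) and, outside the rule, the nuclear reader YTHDC1 (0.54). RBM15 and YTHDF1 held when any of the 4 libraries was left out, whereas YTHDF2 did not (0.0662 without co-treatment replicate 3). RBM15 was the 1 member that passed over 6 libraries.

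**Figure D4:**
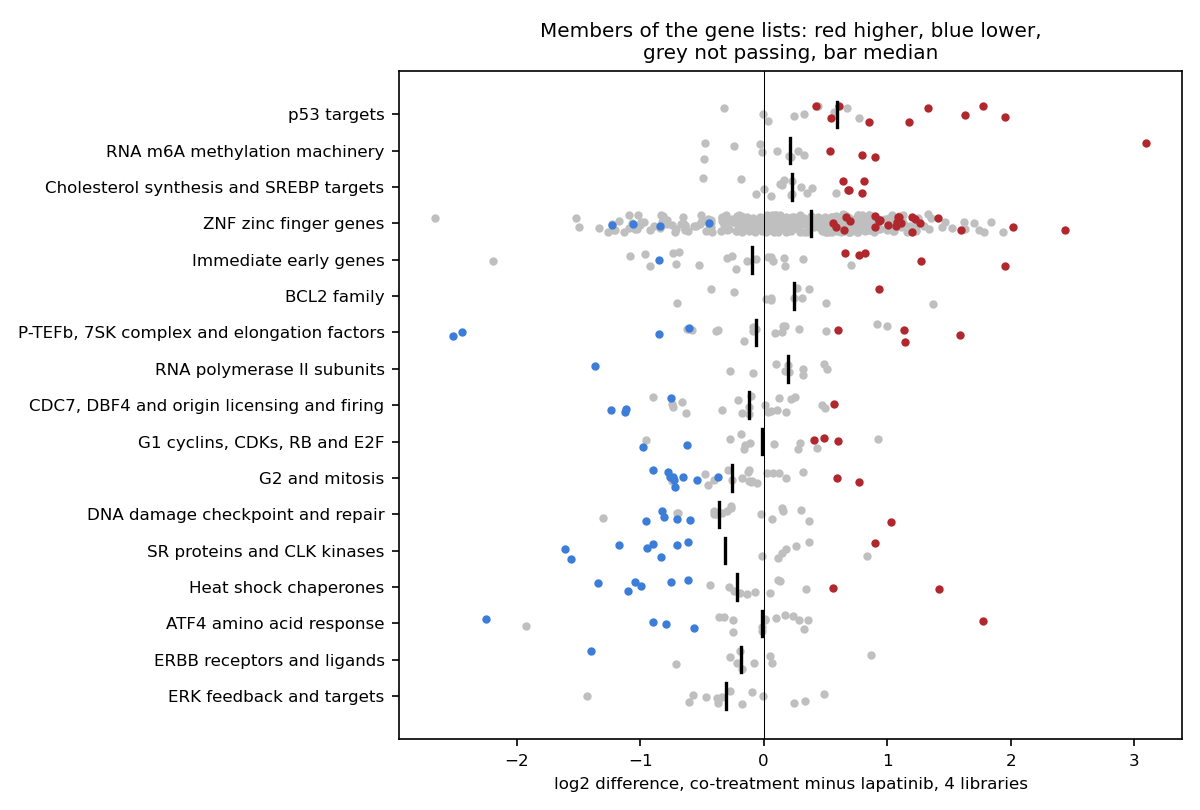
Log2 difference, co-treatment minus lapatinib, over the 4 libraries for each tested member of 17 gene lists. Red and blue points passed as higher and lower, grey points did not pass, and bars are list medians. p53 targets have 9 red and 0 blue points around a median of 0.59, SR proteins 1 red and 8 blue, and ERK feedback genes none of either colour.

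EGFR (ENSG00000146648.15, chr7:55019021-55256620 in GRCh38), the receptor that lapatinib blocks, was itself lower in co-treated cells. It stood at 8.44, 8.03 and 8.75 with lapatinib and at 6.91, 7.10 and 7.29 with both. No co-treated library reached the lowest lapatinib value, and the fall was -1.30 ± 0.27 (adjusted p = 5.66e-04) over 6 and -1.40 ± 0.13 (5.4e-23) over 4. DMSO (8.66 to 8.91) and PHA-767491 (8.58 to 8.85) libraries all lay above the co-treated ones. The 6-library call was lost without co-treatment replicate 1 (0.055) or 2 (0.0637), without lapatinib replicate 3 (0.0919) and with centred libraries (0.223). It was the 1 gene of 10 ERBB receptors and ligands to pass. Of 14 feedback regulators and targets of ERK, such as the DUSP phosphatases and the Sprouty genes, 0 passed over the 4 libraries, with a median of -0.31 and 3 of the 14 above 0.

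Immediate early genes, which growth factors induce within minutes, did not move as one. Of 26 tested, 5 rose and 1 fell over the 4 libraries (3.23% and 4.13% of all genes), with a median of -0.10. FOSL1, a partner of JUN in AP-1, was at 6.35, 6.48 and 6.87 with lapatinib and 7.42, 7.85 and 7.92 with both. Its groups did not overlap, and it rose by 1.16 ± 0.29 (adjusted p = 0.0116) and 1.27 ± 0.14 (8.75e-16). Over 6 libraries that call was lost without co-treatment replicate 2 (0.495) or 3 (0.254), without lapatinib replicate 1 (0.111) and with centred libraries (0.119). MYC, the growth-promoting transcription factor, stood at 6.21, 5.23 and 6.61 with lapatinib and at 6.78, 7.03 and 7.11 with both. It rose over 4 libraries (0.66 ± 0.16, 0.00149), not over 6 (0.96 ± 0.33, 0.212), and not without co-treatment replicate 2 (0.0693) or 3 (0.15). FOS and EGR1 were near the floor of detection, between -2.74 and 1.57 in the 6 libraries, and neither passed (adjusted p = 0.965 and 0.962 over 4). The fall was that of CTGF, a secreted matricellular protein and YAP target (-0.85 ± 0.22, 0.00263), which was lost without co-treatment replicate 2 (0.287).

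Targets of p53, the transcription factor of the DNA damage response, were the list with the largest median over the 4 libraries. Of 18 tested, 9 rose and 0 fell over the 4 libraries, where 3.23% of all genes rose and 4.13% fell, and the median was 0.59 beside 0.06 for all genes. Over 6 libraries 2 rose and 0 fell (0.272% and 0.538% of all genes), with a median of 0.68 beside -0.10. In 10 of the 18 all 3 co-treated libraries lay above the 3 lapatinib ones, where 3.33% of all genes did so. CDKN1A, the CDK inhibitor p21, was at 8.58, 8.62 and 9.13 with lapatinib and 9.35, 9.61 and 9.80 with both. It rose over 4 libraries (0.85 ± 0.12, adjusted p = 5.66e-10) and missed over 6 (0.81 ± 0.25, 0.101), and its DMSO values (8.98 to 9.04) lay between the means of both groups. GADD45A, a growth arrest gene named outside the rule, was at 5.06, 5.07 and 5.84 with lapatinib and 6.30, 6.59 and 6.97 with both, a rise of 1.33 over 4 (6.57e-10; 0.0532 over 6). ZMAT3, an RNA-binding target, rose by 1.18 over 4 (1.77e-10) and by 1.41 over 6 (0.00414). MDM2, the ligase that degrades p53, rose by 0.61 over 4 (0.00128). BTG2, CDKN1A, GADD45A and ZMAT3 kept their calls without each of the 4 libraries in turn; MDM2, CCNG1, TNFRSF10B, TP53INP1 and SESN2 did not. BTG2 is also counted among the immediate early genes, TNFRSF10B among the death receptors and SESN2 in the amino acid response.

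Cell cycle genes moved in both directions over the 4 libraries, with more calls lower than higher among the origin and the mitosis genes. CDC7 (chromosome 1), a main target of PHA-767491 beside CDK9, stood at 5.71, 4.51 and 5.70 with lapatinib and at 3.34, 4.41 and 4.77 with both. The groups overlapped through lapatinib replicate 2, and CDC7 fell over 4 libraries (-1.11 ± 0.27, adjusted p = 0.00166) but not over 6 (-1.14 ± 0.55, 0.667) or without co-treatment replicate 2 (0.23). Of 26 genes of CDC7, DBF4 and origin licensing and firing, 4 fell and 1 rose over the 4 libraries and 0 passed over 6, with a median of -0.12. GINS1, a subunit of the replicative helicase, fell by -1.12 ± 0.20 (3.35e-06) and, with MCM3 (-0.75), held without each library. CLSPN, the checkpoint mediator claspin, fell by -1.24 ± 0.30 (0.00127) and lost the call without co-treatment replicate 2 (0.266). MCM2, the CDC7 substrate, lay at 7.82 to 8.34 with lapatinib and 7.82 to 8.12 with both and did not pass (0.01 ± 0.13, 0.988).

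Of 29 genes of G2 and mitosis, 9 fell and 2 rose over the 4 libraries (4.13% and 3.23% of all genes), with a median of -0.26, and 0 passed over 6. KIF11, the spindle kinesin Eg5, was at 7.70, 7.17 and 7.59 with lapatinib and at 6.42, 6.64 and 6.86 with both. Its groups were apart, and it fell by -0.89 ± 0.15 (adjusted p = 1.56e-07; 0.227 over 6). KIF11, KIF20A, BUB1B and BUB3, the last 3 outside the rule, held without each library, whereas NDC80, a kinetochore subunit (-0.78 ± 0.20), was lost without co-treatment replicate 2 (0.172). WEE1, the kinase that restrains CDK1, rose by 0.77 ± 0.18 (7.99e-04), which was lost without co-treatment replicate 2 (0.0517) or 3 (0.161). Among 16 genes of G1, 3 rose and 2 fell, and none of the 5 calls held without each library. CCND1, cyclin D1, was at 8.32, 8.53 and 8.61 with lapatinib and 8.56, 8.76 and 8.99 with both, overlapping groups that differed by 0.41 ± 0.12 over 4 (0.0186), a call lost without co-treatment replicate 2 (0.0847) or 3 (0.71), without lapatinib replicate 1 (0.207) and with centred libraries (0.341). RB1, the retinoblastoma gene, differed by -0.62 ± 0.17 (0.00722) over 4 and by -0.08 ± 0.36 over 6, where lapatinib replicate 2 stood at 4.77 beside 6.84 and 6.77. CDK4 did not pass (0.09 ± 0.15, 0.881). Of 22 genes of the DNA damage checkpoint and repair, 5 fell and 1 rose, with a median of -0.36. BRCA1 fell by -0.95 ± 0.22 (8.77e-04; 0.149 without co-treatment replicate 2), NBN of the MRN complex by -0.82 ± 0.18 (2.43e-04), and PALB2, the BRCA2 partner, rose by 1.03 ± 0.27 (0.00419; 0.23 and 0.418 without co-treatment replicates 2 and 3).

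Genes of cell death moved in both directions. BCL2L1, which encodes the survival protein BCL-XL, was at 6.40, 6.17 and 6.77 with lapatinib and at 7.24, 7.44 and 7.60 with both. The groups did not overlap, and it rose over 4 libraries (0.93 ± 0.15, adjusted p = 8.83e-08) but missed over 6 (0.98 ± 0.30, 0.107). It was the 1 gene of 13 in the BCL2 family to pass, and MCL1 lay at 9.31 to 9.70 with lapatinib and 9.48 to 9.86 with both (0.06 ± 0.12, 0.907). Of 13 caspase and apoptosome genes 2 fell and 0 rose over the 4 libraries, and neither call held without each library in turn. The apoptosome scaffold APAF1 fell by -1.18 ± 0.32 (0.00603), which was lost without co-treatment replicate 2 (0.517). Of 11 TRAIL and death receptor genes, TNFRSF10D and TNFRSF10B rose over the 4 libraries. RIPK1 (-1.16 ± 0.27, 5.33e-04) and the caspase-8 inhibitor CFLAR (-0.78 ± 0.25, 0.0261) fell. Only the call of TNFRSF10D held without each library in turn. Without co-treatment replicate 2 the differences of RIPK1 and CFLAR were -1.034 and -0.638, and without lapatinib replicate 3 that of CFLAR was -0.535.

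Chaperones and the amino acid response fell in part. Of 18 heat shock chaperones and factors, 6 fell and 2 rose over the 4 libraries (4.13% and 3.23% of all genes), and 4 fell and 0 rose over 6 (0.538% and 0.272%). HSPA1A was at 6.15, 6.92 and 6.30 with lapatinib and 3.79, 4.83 and 4.95 with both, and it fell by -1.94 ± 0.42 (adjusted p = 0.00186; 0.0651 without co-treatment replicate 1) and -1.34 ± 0.23 (9.12e-07). HSPA1B fell by -1.67 ± 0.43 (0.0192; 0.0611 to 0.22 without co-treatment replicate 1 or 2 or lapatinib replicate 1 or 3) and -1.10 ± 0.23 (1.56e-04; 0.0599 without co-treatment replicate 2), but both genes are nearly identical in sequence, so how reads were shared between them is uncertain. HSPA8 and DNAJA1, which encode a constitutive HSP70 and its co-chaperone and are outside the rule, fell by -0.99 (5.46e-10) and -1.04 (2.68e-14). HSF2, a heat shock transcription factor, was the larger of both rises (1.42 ± 0.43, 0.0202), with overlapping groups and a call lost without co-treatment replicate 2 or 3 (0.668 in both). The heat shock element, inverted GAA repeats in a row and the site that HSF factors bind, was found in 6 of 295 start regions of genes called lower with groups apart and in 0 of 212 of those called higher, where 0.313% of all regions had it. The AP-1 site (TGANTCA) was in 24 of the 295 and 7 of the 212, where 4.45% of all regions had it, and the CArG box in 10 and 3, where 1.02% had it. The E-box was in 33 of the 295 and 35 of the 212 (10.1% of all), and the cAMP response element in 8 and 10 (3.3%). The TATA box was in 23 and 13 (5.14%), the CCAAT box in 127 and 84 (36.4%) and the GC box in 227 and 146 (71.2%). Of 20 genes of the ATF4 amino acid response, 4 fell and 1 rose. ATF4, its transcription factor, was at 8.53, 8.74 and 8.67 with lapatinib and 7.29, 7.78 and 7.62 with both, apart in every library, and fell by -1.08 ± 0.26 (0.00692) and -0.90 ± 0.13 (5.66e-10). Over 6 libraries the ATF4 call was lost without each co-treated library in turn (0.0766 to 0.186) or lapatinib replicate 3 (0.0969). SQSTM1, the autophagy receptor p62 and one of the most significant falls over 6 libraries, was at 10.85 to 11.71 with lapatinib and 9.60 to 9.93 with both (-1.46 ± 0.25, 1.08e-05; -1.14 ± 0.13, 2.67e-16), but it missed with centred libraries (0.538 and 0.0516).

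Signalling and metabolic lists held few calls. SMAD3, which carries TGF-β signals to the nucleus, was at 7.48, 7.48 and 7.92 with lapatinib and 8.45, 8.61 and 8.83 with both, and rose by 1.00 ± 0.26 (adjusted p = 0.0186) and 1.01 ± 0.13 (8.29e-13). Its 6-library call was lost without each co-treated library (0.103, 0.409 and 0.326) and without lapatinib replicate 1 (0.126) or 3 (0.0507), and with centred libraries (0.241). RPTOR, the raptor subunit of mTORC1, was at 5.70, 6.63 and 6.46 with lapatinib and 3.40, 4.93 and 4.98 with both, and fell by -1.83 ± 0.44 (0.00803) and -1.13 ± 0.23 (1.03e-04). Over 6 libraries the RPTOR call was lost without co-treatment replicate 1 (0.22) or 2 (0.072) or lapatinib replicate 3 (0.193). It was 1 of 2 genes of 24 in the insulin, PI3K and mTOR list that fell over the 4 libraries, and none rose. Of 20 genes of cholesterol synthesis and its SREBP regulators, 5 rose and 0 fell over 4 libraries, with a median of 0.23 and 17 of 20 above 0. Of the 5 calls 1 held without each library in turn. INSIG1, which retains SREBP in the endoplasmic reticulum, was at 5.64, 4.66 and 5.68 with lapatinib and 5.90, 6.35 and 6.56 with both, apart in every library, and rose by 0.79 ± 0.19 (0.00163; 0.448 over 6). INSIG1 and HMGCS1, an enzyme of the pathway (0.69 ± 0.22, 0.0267), were lost without co-treatment replicate 2 (0.0599 and 0.199) or 3 (0.281 and 0.754).

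The 13 mitochondrially encoded mRNAs show how 1 library set a pattern. MT-ATP6, a subunit of ATP synthase, was at 10.55, 6.12 and 10.80 with lapatinib and 10.50, 10.63 and 10.83 with both. Apart from lapatinib replicate 2 the values overlapped. All 13 passed as higher over 6 libraries, with a median of 1.32, and 0 passed over 4, with a median of 0.13. The difference for MT-ATP6 was 1.5 (adjusted p = 3.36e-06) over 6 libraries and -0.02 without lapatinib replicate 2. Of 81 cytosolic ribosomal proteins 2 rose and 1 fell over 4 libraries, and of 76 mitochondrial ones 2 rose and 0 fell, shares below the 3.23% and 4.13% over all genes.

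Protein-coding genes longer than 20 kb were called lower more often than higher, as were all protein-coding genes together. Over all 12049 protein-coding genes 3.73% were higher and 4.84% lower over the 4 libraries. Those spanning 5 to 20 kb in the genome were higher in 4.67% and lower in 3.43%. The shares were 4.64% and 4.97% at 20 to 50 kb, and 3.59% and 6.17% at 50 to 100 kb. At 100 to 200 kb 1.56% were higher and 6.92% lower. Above 200 kb 1.01% were higher and 4.04% lower, both below the shares over all protein-coding genes. How the shares by span move when 1 library is left out was not tested. The median difference ran from 0.11 below 5 kb to -0.09 at 100 to 200 kb and -0.08 above 200 kb. Across genes, which are not independent, span and difference had a Spearman correlation of -0.15 over 4 libraries and -0.02 over 6. The genes called lower over 4 had a median of 13 exons in their longest mRNA and those called higher 7, beside 8 for all.

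**Figure D5:**
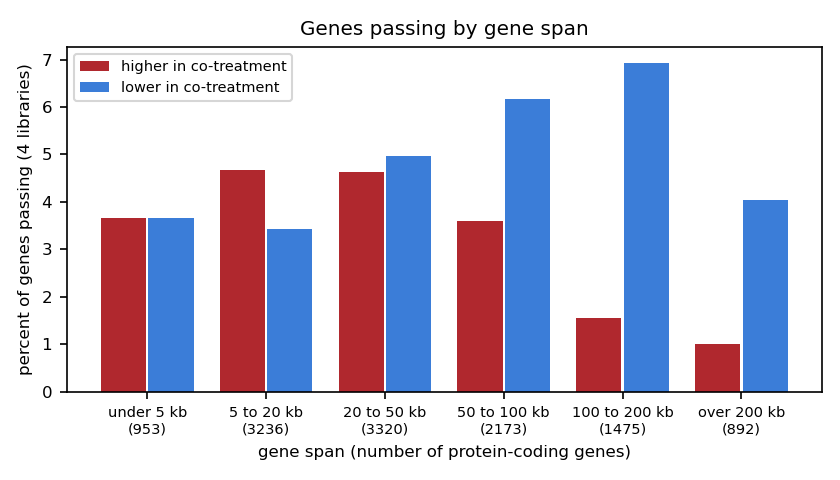
Percent of protein-coding genes called higher (red) and lower (blue) in co-treated cells over the 4 libraries, by the length of the gene in the genome, with the number of genes in brackets. The percent higher is at most 1.56 above 100 kb, where the percent lower is 4.04 to 6.92.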

How the data were processed

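RNA sequencing of 24 cell line samples was deposited as 1 table of log2 values per library, and the 6 SKBR7 columns of both treatments were compared. According to the labels the authors made stranded mRNA libraries, read them as 100-base pairs, counted reads per gene with featureCounts 1.4.6 on GRCh38 with Ensembl release 84, scaled the counts by TMM in edgeR and then quantile normalised them. The aligner is given as HiSat2 2.2.0.4 in the labels and as STAR 2.4.2a in the methods, which remains unresolved. Read depth was not given in the sources used here, so the number of genes listed stands for it, and quantile normalisation gives the listed genes of every library 1 distribution, so a library listing few genes has lower values over shared genes. No count test can be run on these log2 values, which the authors deposited. A second table of group averages and of the authors' own comparisons was not used. Of 36517 lines, 36 with a repeated identifier were left out, and 0 columns belonged to no sample.

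limma 3.58.1 (R 4.3.3) was fitted to 14315 genes with a value in all 6 libraries, as 2 groups with a variance trend, two-sided, with Benjamini-Hochberg adjustment at 0.05, over 6 libraries and over 4. The fit was tested on simulated data. Summaries used Python 3.11.15. Gene spans came from the gene positions deposited with the values. Gene types, mRNA lengths and exon numbers came from GENCODE release 44, which matched 14241 genes, and start regions from RefSeq (GRCh38.p14). The text names the 12 largest rises and falls over the 4 libraries among genes that passed with groups apart and above-median level, up to 3 passing members of each of 30 lists, 14 genes of the study's targets, and the 12 smallest p over 6 libraries; other genes are marked, and some genes that the rule picks are not reported here. Members and lists were chosen with earlier results of these data known. Cells were treated in triplicate. The p-values rest on the variation among these wells alone, taken from the trend across genes, and that variation may be technical. Alternatives were other scalings, filters, variance models, library weights (estimated gene by gene, chosen after seeing the data, since the default estimate did not converge), a replicate block and leaving out each library.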

Additional observations from a re-analysis of the deposited data

How the results depend on the processing

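Counts of genes past the threshold moved widely with the processing, and the cause was not tested. Over 6 libraries (39 higher, 77 lower), ranking each library anew gave 292 and 405, centring each on its median 7 and 7, library weights 762 and 979, all 12 SKBR7 libraries in the fit 103 and 300, and no variance trend 0 and 0. Leaving out 1 library gave 7 to 37 higher and 16 to 167 lower; the lowest, 7 and 16, was without co-treatment replicate 1 and the highest lower count without lapatinib replicate 2. Over 4 libraries (463 higher, 591 lower), ranking gave 1835 and 2078, centring 843 and 1061, the 10 other SKBR7 libraries 1040 and 1340, and no variance trend 0 and 0. Leaving out 1 of the 4 gave 53 to 1388 higher and 148 to 699 lower, and the median difference of all genes then ran from -0.19 to 0.26. The share of higher calls among all calls, 33.6% over 6, was 41.9% after ranking, 50% after centring and 43.8% with weights; over 4 it was 43.9%, and 46.9% and 44.3% after ranking and centring. On leaving out 1 library it ran from 15.7% (without lapatinib replicate 2) to 58.9% (without lapatinib replicate 3) over 6, and from 16.1% (without co-treatment replicate 3) to 73.6% (without lapatinib replicate 3) over 4.

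Deviations of same-numbered libraries from their group means correlated at 0.02, -0.16 and 0.58, and not every library correlated best with its own number. Deviations within a group cancel out, and the libraries that list the fewest genes carry different numbers. The correlations therefore cannot decide whether the replicate numbers pair the samples. With the replicate block over 6 libraries 66 genes were higher and 118 lower, and with the block and ranking 35 and 39. No block could be fitted over 4 libraries, whose groups share 1 number.

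Of the 90 named genes 31 passed over 6 libraries and 81 over 4. Centring ended the 6-library call of 19 of the 31, among them HSPA1A (0.0637), HSPA1B (0.0937), RPTOR (0.0733), ATF4 (0.403), SRSF7 (0.21) and CLP1 (0.051). Directions turned, by more than 1 standard error of the reported difference, in 5 cases. MT-ATP6 over 6 libraries ran from -0.023 without lapatinib replicate 2 to 2.319 without lapatinib replicate 3. RPS15 over 6 ran from -0.443 without lapatinib replicate 1 to 0.382 without lapatinib replicate 2, and was 0.41 with weights. Over 4 libraries, without lapatinib replicate 1 and without lapatinib replicate 3, MCM2 was -0.253 and 0.272 and CDK4 -0.181 and 0.351. Differences that did not pass crossed 0 by less than that for CDK4, MCM2 and RB1 over 6 libraries, MT-ATP6 over 4, and MCL1, FOS and EGR1 in both. Of the 81, 38 lost the call without co-treatment replicate 2, 30 without co-treatment replicate 3, 12 without lapatinib replicate 1 and 6 without lapatinib replicate 3. Read depth behind single values is unknown, so no counting limit can be given.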

Other observations

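Zinc finger genes with a ZNF symbol, grouped by name and not by function, leaned to the higher side. Of 398 tested, 24 rose and 4 fell over the 4 libraries, beside 3.23% and 4.13% of all genes, and their median was 0.38 beside 0.06. Over 6 libraries 0 passed and the median was 0.21 beside -0.10. ZNF580 (2.44 ± 0.53, adjusted p = 2.14e-04), ZNF850 (2.02 ± 0.56, 0.00867) and ZNF597 (1.6 ± 0.50, 0.025) had the largest rises, and each was lost without co-treatment replicate 2 (0.365, 0.536 and 0.655) or 3 (0.372, 0.776 and 0.81). Only ZNF263 and ZNF622, of the 28 that passed, held without each of the 4 libraries in turn. Lapatinib replicate 2 was the lowest library for all 3 named genes, at 1.85, 0.59 and 0.42.

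Pseudogenes, 1340 of the genes tested, had a median of 0.32 over 4 libraries and -0.06 over 6, and 2 passed in each direction over 4. Of 31 Mediator subunits 1 rose (MED9, 1.08 ± 0.31) and 3 fell over 4 libraries, and the calls of MED9 (0.335), MED14 (0.466) and MED29 (0.283) were lost without co-treatment replicate 2. Of 16 clustered histone genes tested of 67 listed, 0 passed over 4 libraries, with a median of 0.35.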
